A study of Mus musculus with 9 samples.

Results

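The comparison described here is that of day 20 with day 10 in cultures of cardiomyocytes made from mouse embryonic stem cells. Its members are the 3 arrays labelled day 20 and the 3 labelled day 10, chosen by their sample titles, so that 6 of the study's 9 arrays are compared; the other 3, from day 30, only help to estimate the spread. All cultures came from 1 line, called synp, derived from R1 embryonic stem cells of the 129X1 x 129S1 background. This line carries a puromycin resistance gene driven by the promoter of Ncx1, the sodium-calcium exchanger gene that is listed on the arrays as Slc8a1. Every culture was differentiated by a series of factors (FGF10, bFGF, VEGF, BMP4 and activin A), and all received puromycin from day 7 on to kill cells that did not use this promoter. The selection therefore rests on the activity of 1 promoter, and the labels do not say whether the drug was kept until day 20. The study asked how mature such cardiomyocytes become in culture. Biotin-labelled copies of total RNA, primed at the poly-A tail, were hybridised, and each array gave 1 signal per probe set. The log base of the deposited signals is not given in the sources used here and was taken as 2 from their range, so that a difference of 1 is read as 2-fold. Whether same-age replicates came from separate differentiations is not stated, so p-values reflect only how far these samples vary, and that variation may be technical. The number of arrays limits the precision.

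A heart muscle cell made from a stem cell starts out close to the cell of an early embryo. It beats, uses fetal forms of contractile proteins and still divides. During maturation in the animal it stops dividing, exchanges fetal for adult isoforms, builds the sarcoplasmic reticulum that stores and releases calcium with each beat, and turns from glucose to fatty acids as fuel. In the same period the cells that surround muscle in the heart, mainly fibroblasts, lay down collagen, elastic fibres and proteoglycans.

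The cells had the markers of their label. All 8 cardiomyocyte markers, among them Tnnt2, the cardiac troponin T gene, had signals above the median of all genes (6.63). The mean signal of the list was between 12.10 and 12.80 on the day 10 arrays and between 12.38 and 12.71 on the day 20 arrays, and 0 of the 8 were called by limma in either direction (1 higher and 1 lower at an unadjusted p under 0.05). Day 10 arrays differed more among themselves than day 20 arrays, with a median SD of a gene over 3 arrays of 0.187 against 0.130 and a lowest correlation between arrays of 0.965 against 0.987. Day 10 replicate 3 stood apart: it lay at -20.9 on the first principal component of the 6 arrays, against -60.8 and -47.5 for replicates 1 and 2 and 39.2 to 50.5 for day 20, and at -48.8 on the second, where the others lay between 0.1 and 24.5. Its 18S ribosomal RNA signal was 13.44, against 12.07 and 12.08, and its poly-A spikes were at 5.09, against 6.23 in replicate 1 and 5.24 in replicate 2. The poly-A spikes also differed between the ages. At day 20 they read 6.27, 6.25 and 6.69, wholly above day 10. The mean difference was 0.88 (exact permutation p = 0.1, the smallest that 3 against 3 arrays can give). What this means for the gene differences was not tested. The array medians lay between 5.48 and 5.56 on all 6 arrays.

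Between day 10 and day 20 the cultures gained signal for extracellular matrix genes and for a subset of muscle genes, and lost signal for embryonic growth regulators and the enzymes of cholesterol synthesis. Of 18194 genes tested, 2545 differed at a limma adjusted p under 0.05 (Benjamini-Hochberg over all genes), which is 14.0%. Of these, 1328 were higher at day 20 (7.30%) and 1217 lower (6.69%), and the median difference over all genes was -0.03. The counts of called genes in each list below are to be read beside these shares. Large changes were more often rises: 740 genes rose and 338 fell at least 2-fold, and 257 rose and 54 fell at least 4-fold. The 3 day 20 arrays lay wholly above the 3 day 10 arrays for 14.5% of genes and wholly below them for 17.3%, 31.8% in all. Without day 10 replicate 3 the number called was 4647, and without day 20 replicate 2 it was 1014.

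**Figure D1:**
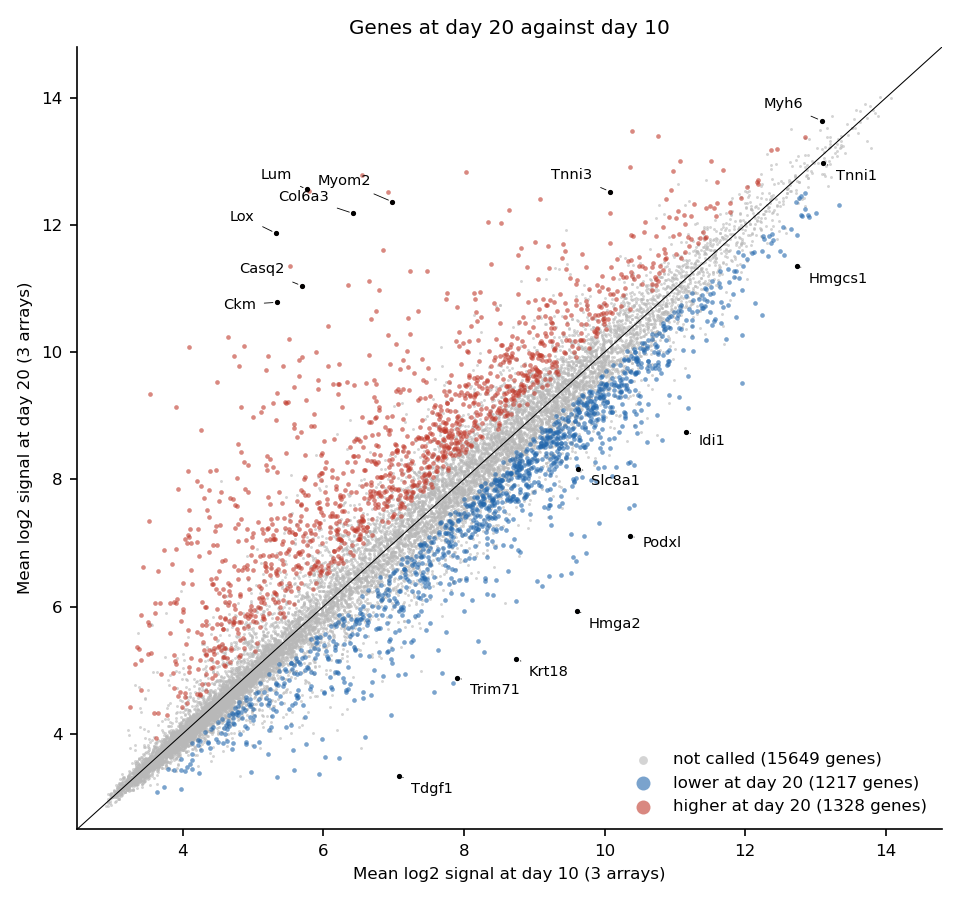
Mean log2 signal of each of 18194 genes over the 3 day 10 arrays (horizontal) and the 3 day 20 arrays (vertical). Red points are the 1328 genes called higher at day 20, blue points the 1217 called lower, grey points the rest, black points the labelled genes, and the line marks equal signal. Matrix and muscle genes such as Lum, Lox, Casq2 and Ckm lie far above the line, and the myofilament genes Tnni1 and Myh6 lie near it at the top right.

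The contractile apparatus was already expressed at day 10. Of the 16 genes of the thick and thin filaments, 1 rose, near the 7.30% of all genes, 0 fell, and the median difference was 0.02. The single rise was that of Tnni3, which encodes the adult cardiac form of troponin I, the subunit that holds contraction off at low calcium. Its signals were 9.30, 10.67 and 10.25 at day 10 and 12.22, 12.74 and 12.62 at day 20, a rise of 2.45 (SE 0.31, adjusted p = 0.0034). Its fetal partner Tnni1 read 12.99, 13.28 and 13.07 at day 10 and 12.80, 13.04 and 13.07 at day 20, a difference of -0.14 (SE 0.12, adjusted p = 0.47). The arrays of the 2 ages overlapped for Tnni1 and were far apart for Tnni3. Signals of different probe sets cannot be set against each other, and the share of each form is therefore not given.

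The second pair of isoforms showed no such gain. Myh6, the adult alpha myosin heavy chain gene of the mouse, read 12.65, 13.13 and 13.47 at day 10 and 13.48, 13.79 and 13.65 at day 20. All day 20 arrays lay above all day 10 arrays, though the nearest were almost level, and the difference of 0.55 (SE 0.19) missed the threshold (adjusted p = 0.095); without day 10 replicate 3 its adjusted p was 0.013. Myh7, the fetal beta myosin heavy chain gene, differed by 0.24 (SE 0.25, adjusted p = 0.58) with overlapping arrays. Of the light chain genes, Myl2, the ventricular form, ranged from 11.17 to 13.02 at day 10 and from 10.93 to 13.40 at day 20 (difference 0.42, adjusted p = 0.74). Myl7, the atrial form, was between 13.53 and 14.08 on all 6 arrays (difference -0.02, adjusted p = 0.96). Signals this high can be compressed by saturation, which these files do not allow to be checked. Tnnt2 was at 13.42 ± 0.03 at day 10 and 13.14 ± 0.16 at day 20 (SD, n = 3; difference -0.28, adjusted p = 0.089). Acta1, the skeletal actin gene that fetal hearts use, differed by -1.27 with overlapping arrays (SE 0.55, adjusted p = 0.17).

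The structures that hold the filaments in register changed more. Of the 21 measured genes of the Z-disc, M-band and costamere, 4 rose, against 7.30% of all genes, and 0 fell, with a median of 0.48. Myom2, which encodes M-protein, a crosslinker of thick filaments in the M-band, read 5.77, 6.77 and 8.40 at day 10 and 11.80, 12.63 and 12.67 at day 20, a rise of 5.39 (SE 0.61, adjusted p = 0.0019). Myoz2, a Z-disc partner of calcineurin, rose by 2.43 (SE 0.33, adjusted p = 0.0041), and Tcap, which caps titin at the Z-disc, by 1.09 (SE 0.17, adjusted p = 0.0073). Dmd, which encodes dystrophin, rose by 1.38 (adjusted p = 0.017), a call that was lost without replicate 2 at day 10 or replicates 2 or 3 at day 20 (adjusted p up to 0.062).

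In the sarcoplasmic reticulum, 4 of 20 calcium cycling genes rose, against 7.30% of all genes, with a median of 0.63. The 2 that fell are a share near the 6.69% of all genes. Casq2, which encodes the calcium-binding protein that fills this store, read 5.93, 5.69 and 5.46 at day 10 and 10.72, 11.19 and 11.23 at day 20. That rise of 5.35 (SE 0.23, adjusted p = 9.8e-05) came with replicates of each age close together, from day 10 signals below the median of all genes. Trdn, which ties calsequestrin to the release channel, rose by 2.11 (SE 0.30, adjusted p = 0.0052), with day 10 arrays at 8.54, 9.52 and 9.58 and day 20 arrays at 10.84, 11.46 and 11.66. Pln, the brake on the calcium pump, read 9.50, 9.88 and 11.69 at day 10 and 13.02, 12.49 and 13.24 at day 20, a rise of 2.56 (SE 0.52, adjusted p = 0.017). S100a1, a calcium sensor that raises calcium release, rose by 1.59 (SE 0.30, adjusted p = 0.014). The call of Pln was lost without replicate 2 at day 10 or replicates 1 or 3 at day 20 (adjusted p up to 0.063), and that of S100a1 without day 20 replicate 2 (adjusted p = 0.054). The pump itself, Atp2a2, and the release channel, Ryr2, did not pass, with differences of 0.85 (adjusted p = 0.059) and 0.41 (adjusted p = 0.66). Without day 10 replicate 3, 11 of the 20 were called higher.

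Slc8a1, whose promoter drove the selection, read 9.20, 9.80 and 9.89 at day 10 and 8.33, 7.94 and 8.24 at day 20. It fell by 1.46 (SE 0.38, adjusted p = 0.041), with no overlap of the arrays. The call was lost when any of the 6 arrays was left out (adjusted p up to 0.13), although the difference kept within -1.68 and -1.33. These values are from the brightest probe set of the gene. With every probe set tested by limma, its others differed by -0.98, -0.40 and -0.29 and did not pass (adjusted p = 0.29, 0.11 and 0.76). The other fall in the list was that of Sri, which encodes sorcin, a modulator of the release channel, by 0.32 (adjusted p = 0.041), a call that also depended on single arrays (adjusted p up to 0.13 without day 10 replicates 2 or 3 or any day 20 replicate).

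Genes that set the resting potential and repolarise the cell rose in part. Among 17 measured genes for ion channels and pumps of working heart muscle, 6 rose and 0 fell. The median was 0.56, and 7.30% of all genes rose. Kcnq1, which encodes the pore of the slow delayed rectifier potassium current, read 5.50, 5.83 and 5.87 at day 10 and 7.76, 7.95 and 8.41 at day 20, a rise of 2.31 (SE 0.20, adjusted p = 6.3e-04). Its call was the only one of the 6 that held without day 20 replicate 2. Kcnd2, a pore of the transient outward current, rose by 1.81 (adjusted p = 0.014) and Kcnj12, an inward rectifier, by 1.46 (adjusted p = 0.025). Atp1b1, a subunit of the sodium pump, rose by 0.47 (adjusted p = 0.038). Kcnj3 and Kcne1, named to complete the count, rose by 3.18 and 3.01 (adjusted p = 0.042 and 0.045). Without day 20 replicate 2 the adjusted p was 0.056 for Kcnd2, and over the arrays left out in turn it reached 0.083 for Kcnj12, 0.12 for Atp1b1, 0.11 for Kcnj3 and 0.13 for Kcne1; each of these 4 was lost without at least 4 of the 6 arrays.

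**Figure D2:**
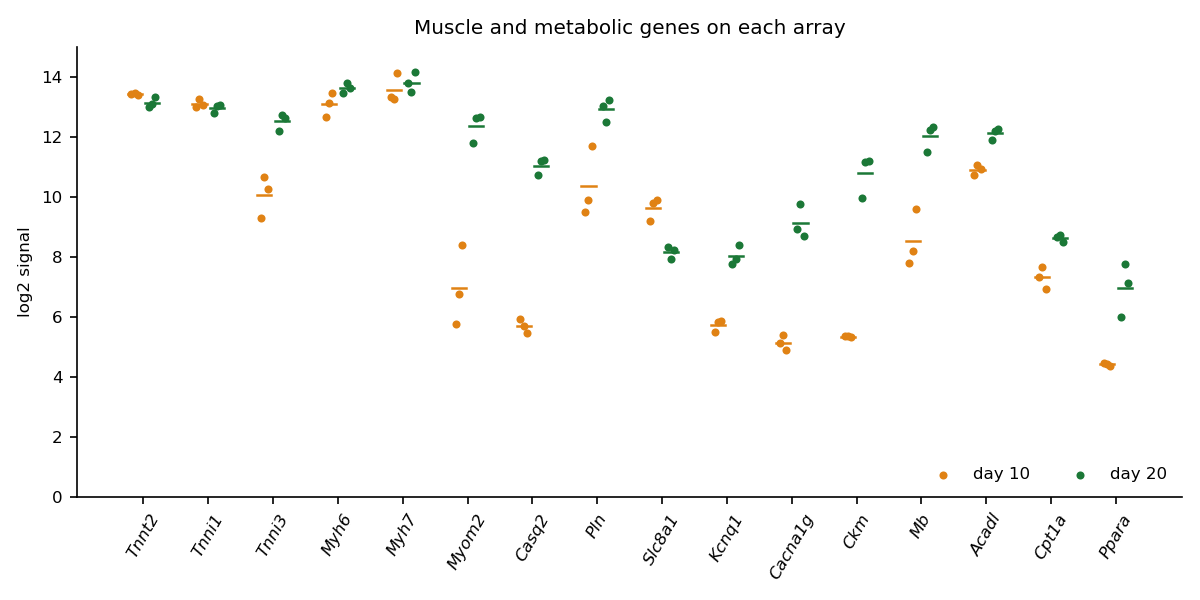
Log2 signal of 16 muscle and metabolic genes on each array. Each point is 1 array, in the order of replicates 1, 2 and 3 from left to right, orange for day 10 and green for day 20, and the bar is the mean of 3. In Casq2, Ckm, Cacna1g and Kcnq1 a wide gap separates the ages, although the day 20 points of Ckm and Cacna1g are spread. Tnnt2, Tnni1 and Myh7 lie at the top of the scale at both ages, and Slc8a1 is lower at day 20.

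Of 9 measured pacemaker genes, 1 rose, near the 7.30% of all genes, and 0 fell. The gene that rose was Cacna1g, a T-type calcium channel gene of fetal muscle and the conduction system. It read 5.12, 5.39 and 4.90 at day 10 and 8.93, 9.78 and 8.68 at day 20, a rise of 3.996 (SE 0.33, adjusted p = 5.4e-04). Isl1, a transcription factor gene of cardiac progenitors and the sinus node, was high at both ages and differed by -0.82 (SE 0.65, adjusted p = 0.45). Of 23 cardiac transcription factor genes, 2 rose, near the 7.30% of all genes, 0 fell, and the median was 0.23. Mef2a, which drives late muscle genes, read 10.08, 10.69 and 10.94 at day 10 and 11.87, 12.30 and 11.96 at day 20, a rise of 1.47 (SE 0.21, adjusted p = 0.0052). Nr2f2, an atrial regulator that fibroblasts and vessels also use, rose by 0.84 (adjusted p = 0.024; up to 0.078 without replicate 1 at day 10 or replicates 1 or 2 at day 20). Without day 10 replicate 2, 6 of the 23 were called higher.

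The natriuretic peptides, hormones that the fetal heart secretes, varied widely between replicates. Of the 7 measured genes of these peptides and their receptors, 0 rose and 1 fell, the receptor gene Npr3 (-0.44, adjusted p = 0.042; up to 0.12, lost without each array but day 10 replicate 3). Such a single call is near the share of all genes, 6.69% lower. Nppa read 9.31, 6.05 and 11.62 at day 10 and 9.96, 9.80 and 11.74 at day 20 (difference 1.504, SE 1.37, adjusted p = 0.52). Nppb read 10.45, 6.57 and 11.58 and then 8.63, 7.75 and 10.69 (difference -0.51, SE 1.32, adjusted p = 0.85). In both genes replicate 2 was the lowest and replicate 3 the highest at each age. On the receiving side of adrenergic signalling, 3 of 12 measured genes rose and 0 fell (1 higher without day 10 replicate 1). Prkaca, the catalytic subunit of protein kinase A, rose by 1.01 (SE 0.14, adjusted p = 0.0045), from 10.22, 10.68 and 10.55 to 11.39, 11.48 and 11.61. Its regulatory subunit gene Prkar1a rose by 0.56 (adjusted p = 0.018; up to 0.061 without replicates 1 or 2 at day 10 or replicate 3 at day 20). Pde4d, which breaks cyclic AMP down, rose by 0.62 (adjusted p = 0.040; up to 0.13, lost without each array but day 20 replicate 1).

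Genes for burning fat rose in part. All 19 measured fatty acid oxidation genes had a positive difference, the smallest 0.08 and the median 0.44, and 7 of them were called higher and 0 lower. Acadl, the long-chain acyl-CoA dehydrogenase gene of mouse, read 10.73, 11.05 and 10.94 at day 10 and 11.90, 12.19 and 12.28 at day 20, a rise of 1.21 (SE 0.12, adjusted p = 0.0012). Cpt1a, which admits fatty acids to mitochondria, rose by 1.32 (SE 0.21, adjusted p = 0.0075), and Acadvl, the very-long-chain enzyme, by 1.33 (SE 0.24, adjusted p = 0.011). Acaa2, the thiolase that ends the cycle, rose by 0.998 (adjusted p = 0.021; up to 0.079 without day 20 replicate 2 or 3). Without day 20 replicate 2 the list had 3 calls, and without day 10 replicate 3 it had 9. Upstream of oxidation, 5 of 18 genes of lipid uptake, storage and PPAR targets rose and 0 fell (3 higher without day 20 replicate 2, 8 without day 10 replicate 3). Cd36, the fatty acid transporter, read 6.87, 7.57 and 7.26 at day 10 and 9.40, 10.95 and 10.52 at day 20, a rise of 3.06 (SE 0.38, adjusted p = 0.0028). Lpl, which frees fatty acids from lipoproteins, rose by 1.88 (SE 0.23, adjusted p = 0.0028). Ppara, the nuclear receptor that switches on fat oxidation, read 4.45, 4.45 and 4.37 at day 10 and 5.996, 7.76 and 7.14 at day 20, a rise of 2.54 (SE 0.37, adjusted p = 0.0053). Ppargc1a, a coactivator of mitochondrial genes, lay higher on every day 20 array, at 9.11 to 9.22 against 8.63 to 9.04, but did not pass (difference 0.34, SE 0.14, adjusted p = 0.15).

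Of 38 oxidative phosphorylation genes, 2 rose and 0 fell, with a median of 0.12. The share that rose was below the 7.30% of all genes. Without day 10 replicate 3, 6 were called higher. The rises were those of 2 muscle isoforms of cytochrome c oxidase, the terminal complex of the respiratory chain. Cox8b read 7.40, 8.74 and 9.03 at day 10 and 10.52, 12.12 and 11.52 at day 20 (rise 2.996, SE 0.49, adjusted p = 0.0081). Cox6a2 read 10.06, 11.09 and 12.06 and then 12.50, 13.39 and 13.14 (rise 1.94, SE 0.47, adjusted p = 0.031; up to 0.11 without day 10 replicates 1 or 2 or day 20 replicates 2 or 3). In both, replicate 1 was the lowest array of each age. Of 22 glycolysis genes 3 rose and 0 fell, with a median of 0.52. By limma, 0 were called without day 20 replicate 2 and 7 without day 10 replicate 3. They were Pfkm, the muscle phosphofructokinase gene (1.24, adjusted p = 0.017), Ldhb, the heart form of lactate dehydrogenase (0.71, adjusted p = 0.028), and Slc2a4, the insulin-responsive glucose transporter (1.003, adjusted p = 0.038). Of 19 citric acid cycle and pyruvate genes, Mpc1, a subunit of the mitochondrial pyruvate carrier, rose by 1.42 (adjusted p = 0.017) and Bdh1, a ketone body enzyme, fell by 1.90 (adjusted p = 0.032). Such single calls are near the shares of all genes, 7.30% higher and 6.69% lower. Without day 20 replicate 2 the adjusted p values of these 2 genes were no longer under the threshold, and over all single arrays they reached 0.065 and 0.095. Without day 10 replicate 3, 6 genes of that list were called higher.

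The genes that buffer energy and oxygen had some of the largest rises of the muscle lists. Ckm, the muscle creatine kinase gene, read 5.35, 5.36 and 5.32 at day 10 and 9.98, 11.18 and 11.20 at day 20, a rise of 5.44 (SE 0.32, adjusted p = 1.2e-04). Its day 10 signals lay below the median of all genes, and detection calls were not used here, so no fold is given. Mb, which encodes myoglobin, read 7.79, 8.21 and 9.60 and then 11.50, 12.24 and 12.35, a rise of 3.50 (SE 0.44, adjusted p = 0.0030). Ckmt2, the mitochondrial creatine kinase of muscle, rose by 2.57 (adjusted p = 0.013; 0.055 without day 20 replicate 2). Dhrs7c, a reductase gene of the sarcoplasmic reticulum, belonged to none of these lists. It read 4.47, 5.28 and 4.17 at day 10 and 9.92, 10.70 and 10.08 at day 20, a rise of 5.59 (SE 0.30, adjusted p = 1.0e-04). Of the 11 measured genes of energy transfer and oxygen storage, 3 rose and 1 fell, the fall near the 6.69% of all genes. Without day 10 replicate 3, 5 were called higher. The fall was that of Slc25a5, an ADP/ATP carrier of proliferating cells, by 0.64 (adjusted p = 0.021; up to 0.069 without day 10 replicates 1 or 2 or day 20 replicates 1 or 2).

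The largest rises of all were those of extracellular matrix genes. Of the 15 genes that the naming rule placed highest, Lum (6.79), Fbln5 (6.74), Lox (6.55), Mgp (6.23), Fmod (5.99), Aspn (5.81), Col6a3 (5.76), Eln (5.59) and Abi3bp (5.23) encode matrix proteins or the enzyme that crosslinks them. Lum, which encodes the proteoglycan lumican, read 7.34, 5.62 and 4.34 at day 10 and 13.09, 12.60 and 11.99 at day 20 (SE 0.65, adjusted p = 0.0010). Fbln5, an organiser of elastic fibres, read 7.11, 4.79 and 5.51 and then 13.06, 12.47 and 12.09 (SE 0.54, adjusted p = 4.9e-04). Eln, which encodes elastin itself, read 7.25, 7.26 and 6.26 and then 12.87, 12.44 and 12.23 (SE 0.42, adjusted p = 4.1e-04). Lox, the oxidase that crosslinks collagen and elastin, read 6.11, 4.995 and 4.87 and then 12.24, 12.07 and 11.31 (SE 0.44, adjusted p = 2.6e-04). The lowest day 20 array of each of these 4 genes lay more than 4-fold above its highest day 10 array. The rest of the 15 were Penk, which encodes the opioid precursor proenkephalin (5.83, adjusted p = 4.4e-04), Tm4sf1, a membrane protein gene of vessels and migrating cells (5.22, adjusted p = 0.0047), and the muscle genes Dhrs7c, Ckm, Myom2 and Casq2.

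By role, the matrix lists rose as follows. Of 24 measured genes of proteoglycans and elastic fibres, 15 rose and 0 fell, with a median of 2.91. Bgn, the proteoglycan biglycan, rose by 4.81 (SE 0.29, adjusted p = 1.2e-04) and belonged to these. Of 19 collagen genes, 12 rose and 0 fell, with a median of 2.04. Col1a1, a chain of the main fibrillar collagen, read 6.85, 6.14 and 7.56 at day 10 and 12.31, 11.48 and 11.02 at day 20 (rise 4.75, SE 0.43, adjusted p = 8.1e-04). Col6a3 and Col5a2, chains of a filament and of a fibril nucleator, rose by 5.76 (SE 0.31, adjusted p = 1.1e-04) and 3.34 (SE 0.26, adjusted p = 4.4e-04). Without day 20 replicate 2, 8 collagen genes were called. Of 16 matricellular genes, which encode matrix proteins that signal to cells, 7 rose and 0 fell, and Comp led them (rise 5.22, SE 0.26, adjusted p = 1.0e-04). Postn, which encodes periostin, read 7.16, 8.81 and 9.05 and then 12.78, 12.03 and 11.35 (rise 3.71, SE 0.51, adjusted p = 0.0045). Of 14 genes that modify collagen, 6 rose, among them Plod1, a lysyl hydroxylase (2.11, adjusted p = 0.0088), and 3 were called without day 20 replicate 2. Of 20 matrix protease and inhibitor genes, 9 rose, led by Timp2, an inhibitor (1.58, SE 0.17, adjusted p = 0.0015), and Adamts5, which cleaves proteoglycans (3.51, SE 0.50, adjusted p = 0.0048).

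Markers of other cell types are given beside the matrix genes. Of 16 fibroblast markers, 8 rose and 0 fell, with a median of 2.0. Of these 16, Col1a1, Col3a1 and Postn are also counted in the matrix lists, and all 3 rose. Of the 13 others, 5 rose and 0 fell, with a median of 0.93, and their mean signal was 5.72, 6.03 and 5.82 at day 10 and 7.85, 7.44 and 7.15 at day 20. The mean signal of all 16 ran from 6.09 to 6.53 on the day 10 arrays and from 8.03 to 8.81 on the day 20 arrays. Cd34, a surface protein of fibroblasts and vessels, read 4.68, 5.39 and 5.50 at day 10 and 10.50, 9.57 and 9.11 at day 20 (rise 4.53, SE 0.37, adjusted p = 4.9e-04). S100a4 (3.59, adjusted p = 0.0011) and Pdgfrl (3.87, adjusted p = 0.0035) were also higher. Not all defining markers followed, since Pdgfra, the platelet-derived growth factor receptor of fibroblasts, ranged from 5.92 to 8.51 at day 10 and from 8.13 to 9.21 at day 20 (difference 1.21, adjusted p = 0.27). Tcf21, a transcription factor gene of heart fibroblasts, had a difference of 0.78 (adjusted p = 0.44) and stayed below the median signal of all genes on 5 of the 6 arrays. Both were named after their values were seen. Within day 20, replicate 1 had the highest mean of the fibroblast markers and also the highest list medians of collagens (1.70 above the mean of each gene, against 0.87 and 0.84) and of proteoglycans and elastic fibres (1.99, against 1.21 and 0.62). The part of other cells in the matrix rises was not tested. In bulk RNA, more cells of a type and more RNA per cell cannot be told apart.

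Of 12 smooth muscle and pericyte markers, 5 rose and 1 fell, the fall near the 6.69% of all genes, and 2 were called higher without day 20 replicate 1. Cspg4, the NG2 proteoglycan of pericytes, rose by 1.23 (adjusted p = 0.0050) and Mylk, myosin light chain kinase, by 3.25 (adjusted p = 0.0085). Cnn1, which encodes calponin of smooth and immature heart muscle, fell by 2.04 (adjusted p = 0.022; up to 0.066 without day 10 replicates 1 or 2 or day 20 replicates 2 or 3). Of 15 endothelial, 10 epicardial and 14 endoderm markers, 0 were called by limma in either direction. At an unadjusted p under 0.05, 2 endothelial markers were higher and 3 lower, 1 epicardial marker was lower, and 0 endoderm markers passed. Their mean signals on the day 20 arrays were 5.23 to 5.33, 4.996 to 5.65 and 4.65 to 4.76, all below the median of all genes. Blood, skeletal muscle, cartilage and fat lists had at most 2 calls each. Among them Acan, the aggrecan gene of cartilage and valves, read 5.49, 5.19 and 5.17 at day 10 and 10.18, 8.35 and 9.05 at day 20 (rise 3.91, SE 0.39, adjusted p = 0.0011).

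**Figure D3:**
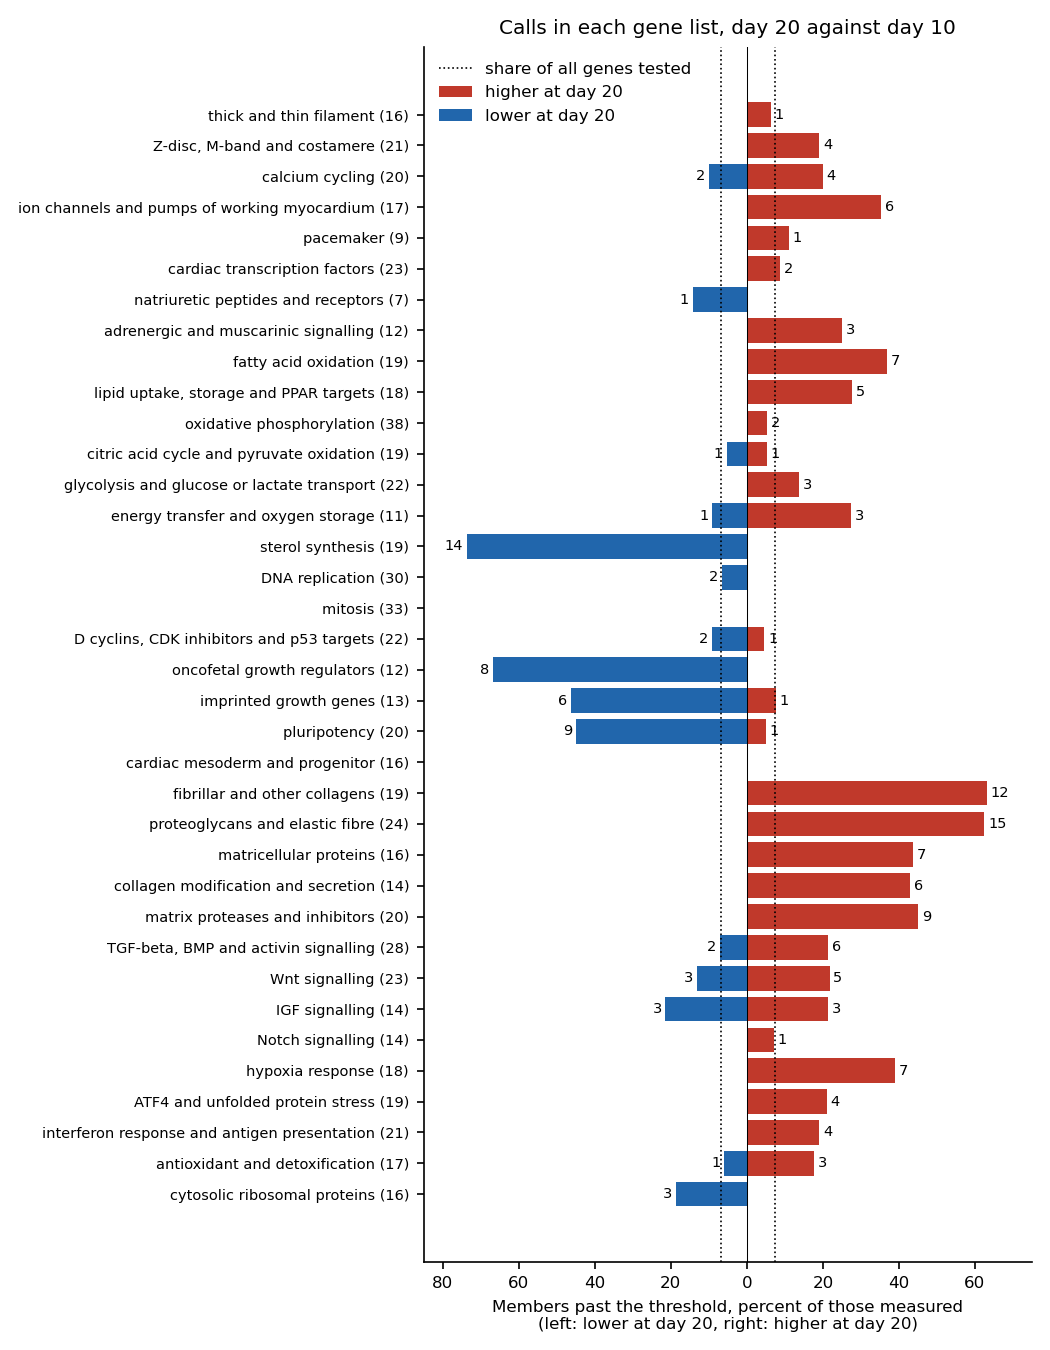
Share of the measured members of each gene list that were called higher (right, red) or lower (left, blue) at day 20, with the number called beside each bar and the number measured in brackets. Dotted lines mark the share of all genes tested, 7.30% higher and 6.69% lower. Sterol synthesis and oncofetal genes reach furthest to the left, collagens and proteoglycans furthest to the right, and mitosis and cardiac mesoderm have no call.

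Genes of signalling between cells changed in both directions. Of 28 TGF-beta, BMP and activin genes, 6 rose and 2 fell, the falls near the share of all genes. With 1 array left out, 2 (day 20 replicate 1) to 10 (day 10 replicate 3) were called higher and 0 to 3 lower. Fstl1, a secreted follistatin-like protein, led them (1.54, SE 0.19, adjusted p = 0.0031). Of 23 Wnt genes, 5 rose and 3 fell (3 higher without day 10 replicate 2, 1 lower without day 20 replicate 1). The rises included the secreted antagonist Wif1, at 3.99, 3.17 and 3.40 and then 7.60, 6.37 and 8.08 (rise 3.83, SE 0.42, adjusted p = 0.0017). Also higher were Dkk3, a secreted protein of the Dickkopf family (3.79, SE 0.36, adjusted p = 9.5e-04), and Sfrp2, a frizzled-like Wnt binder (4.05, SE 0.54, adjusted p = 0.0039). The falls included Lef1, a transcription factor that Wnt activates (-1.42, SE 0.19, adjusted p = 0.0042), and Wnt2, a ligand of the early heart field (-2.91, SE 0.67, adjusted p = 0.027; up to 0.083 without any 1 of the day 20 arrays). Of 14 IGF genes, 3 rose and 3 fell (5 higher without day 10 replicate 3). Igfbp7 rose by 3.59 (SE 0.34, adjusted p = 9.7e-04), whereas Igfbp3, another IGF-binding protein gene, fell by 2.74 (SE 0.35, adjusted p = 0.0035), from 9.04, 7.62 and 7.96 to 5.36, 5.52 and 5.52. Of 14 Notch genes, Nrarp, a feedback inhibitor, rose by 1.93 (SE 0.34, adjusted p = 0.011), a share near the 7.30% of all genes.

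Most genes of cholesterol synthesis fell. The pathway builds cholesterol from acetyl-CoA in a long series of steps. Of 19 measured genes, regulators included, 14 fell and 0 rose, against 6.69% of all genes, and the median difference was -1.40. All 19 differences were negative, from -2.42 to -0.62. In 16 the day 20 arrays lay wholly below those of day 10, as they did for 17.3% of all genes. Without each array in turn, as few as 10 (day 20 replicate 2 left out) and as many as 17 (day 10 replicate 3 left out) were called. Idi1, which isomerises the isoprene unit, read 10.998, 11.71 and 10.78 at day 10 and 8.60, 8.84 and 8.79 at day 20, a fall of 2.42 (SE 0.22, adjusted p = 8.6e-04). Hmgcs1, which makes the substrate of HMG-CoA reductase, read 12.41, 13.15 and 12.62 and then 11.21, 11.55 and 11.31 (fall of 1.37, SE 0.18, adjusted p = 0.0039). Msmo1 and Cyp51, which strip methyl groups from lanosterol, fell by 1.68 (SE 0.23, adjusted p = 0.0041) and 1.61 (SE 0.23, adjusted p = 0.0048). Day 10 replicate 2 was the highest array in each of these 4. Srebf2, the transcription factor that switches the pathway on, fell by 0.84 (adjusted p = 0.0099) and Insig1, which holds that factor back, did not pass (-0.83, adjusted p = 0.26); both were named after their values were seen.

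**Figure D4:**
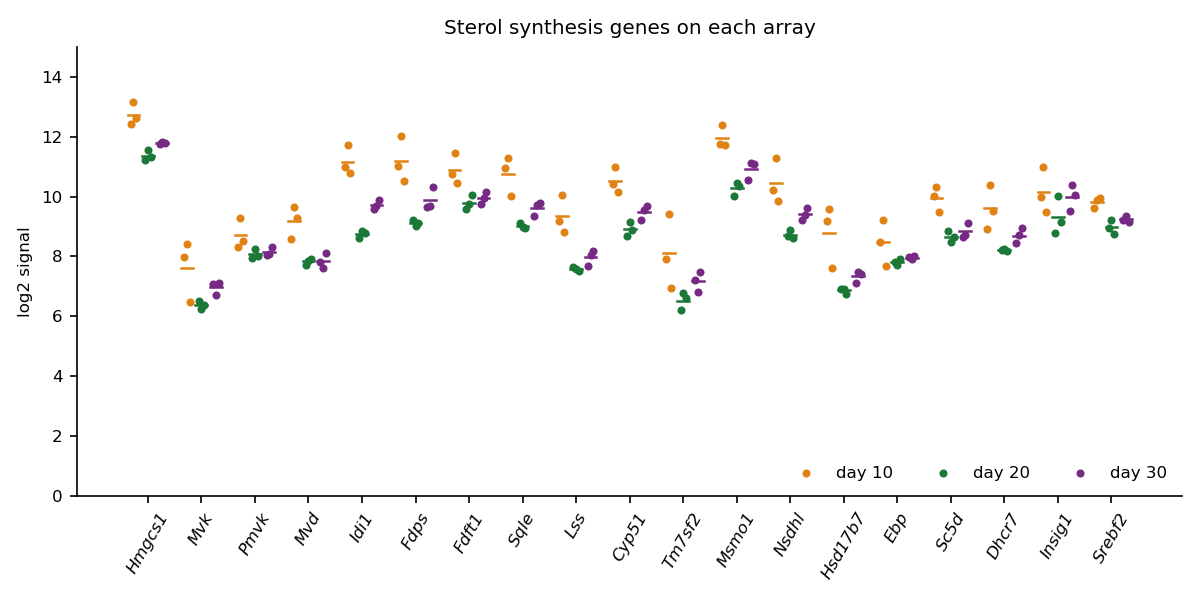
Log2 signal of the 19 measured sterol synthesis genes on each array, in pathway order with 2 regulators at the right end, orange for day 10, green for day 20 and purple for day 30. Points are arrays in replicate order and bars are means of 3. The day 20 points lie below the day 10 points in 16 genes, and day 10 replicate 2 is the highest orange point in most.

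The promoters of these genes are shown because the members moved together. Sequences come from the RefSeq promoter table on GRCm38.p6, which held 16 of the 19 genes, and were searched over the 250 bases before the transcription start. Among 14 short patterns searched on both strands in 6 lists, CCAAT, the box bound by the factor NF-Y, was singled out after its shares were seen. A gene was counted if any of its promoters in the table held the pattern, and some promoters of Dhcr7 and Pmvk held none. By that count all 16 sterol genes held CCAAT or its reverse ATTGG, against 39.4% of the 14453 tested genes in the table and 33.8% of all 32851 promoters, and 9 of them held at least 2 copies. In the mitosis list 21 of 26 genes held it. GGGCGG, a box bound by Sp factors, was held by 15 of the 16, against 53.4% of tested genes. The consensus sterol regulatory element was in 0 of the 16, against 0.2% of tested genes, which says only that its letters are not in the window. A pattern so rare would seldom be met in 16 genes. Its shorter form TCACNCCAC was in 1 of the 16, against 1.3% of tested genes. A match is a description of the sequence and not of binding. Below are the 200 bases before the start of the 4 genes with the smallest adjusted p, 5′ to 3′ on the strand of the gene, with CCAAT or ATTGG in capitals. Idi1 lies on chr13:8885406-8885605 (plus strand), Hmgcs1 on chr13:119690151-119690350 (plus), Msmo1 on chr8:64733579-64733778 (minus) and Cyp51 on chr5:4104698-4104897 (minus).
Idi1: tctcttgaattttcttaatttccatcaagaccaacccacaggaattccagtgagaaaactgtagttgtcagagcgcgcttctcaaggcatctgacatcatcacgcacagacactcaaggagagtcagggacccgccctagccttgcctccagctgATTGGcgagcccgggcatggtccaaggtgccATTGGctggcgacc
Hmgcs1: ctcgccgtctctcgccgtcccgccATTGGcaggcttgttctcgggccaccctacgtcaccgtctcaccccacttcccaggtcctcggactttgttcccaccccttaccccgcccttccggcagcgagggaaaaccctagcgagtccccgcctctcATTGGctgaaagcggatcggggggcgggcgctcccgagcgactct
Msmo1: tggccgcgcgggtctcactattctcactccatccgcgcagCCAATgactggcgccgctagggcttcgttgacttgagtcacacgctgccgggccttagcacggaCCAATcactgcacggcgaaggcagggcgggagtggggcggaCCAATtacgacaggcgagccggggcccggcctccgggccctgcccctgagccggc
Cyp51: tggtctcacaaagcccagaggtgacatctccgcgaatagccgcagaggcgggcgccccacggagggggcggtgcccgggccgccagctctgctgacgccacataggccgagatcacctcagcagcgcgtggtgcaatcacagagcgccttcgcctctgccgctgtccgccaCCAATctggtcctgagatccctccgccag

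The box nearest the start began 14 bases before it in Idi1, 45 in Hmgcs1, 55 in Msmo1 and 29 in Cyp51.

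Lists of embryonic genes differed in their counts. Of 16 genes of cardiac mesoderm and progenitors, 0 were called by limma in either direction, with a median of -0.15. Of 12 measured oncofetal growth regulators, genes active in embryos and in some tumours, 8 fell and 0 rose, with a median of -1.73, and 8 fell whichever of the 6 arrays was left out. Hmga2, a chromatin protein of growing embryonic tissue, read 9.56, 9.41 and 9.84 at day 10 and 5.99, 5.54 and 6.26 at day 20. It fell by 3.67 (SE 0.19, adjusted p = 1.0e-04). Trim71, a ubiquitin ligase and target of the let-7 microRNAs, read 8.26, 7.62 and 7.82 and then 4.76, 4.86 and 5.03 (fall of 3.02, SE 0.17, adjusted p = 1.2e-04). Igf2bp1 and Igf2bp3, RNA-binding proteins of fetal cells, fell by 1.81 (SE 0.16, adjusted p = 6.3e-04) and 1.41 (SE 0.12, adjusted p = 6.5e-04). The replicates of each age lay close together in these 4 genes, day 10 replicate 3 included. Mycn, a growth-driving transcription factor, fell by 2.88 (SE 0.48, adjusted p = 0.0083), and Lin28a, Dnmt3b and Sox11, named to complete the count, by 2.57, 1.88 and 1.65.

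Of 20 pluripotency genes, 9 fell and 1 rose, the latter near the 7.30% of all genes, and 5 of the 20 had a mean above the median of all genes. Pou5f1, which encodes Oct4, read 5.15, 6.47 and 6.30 at day 10 and 4.01, 3.78 and 3.95 at day 20 (fall of 2.06, SE 0.31, adjusted p = 0.0056). Sall4, a zinc finger protein of embryonic cells, fell by 2.31 (SE 0.19, adjusted p = 4.9e-04), Dppa4 by 1.13 (SE 0.18, adjusted p = 0.0072) and Zfp42, known as Rex1, by 2.14 (SE 0.35, adjusted p = 0.0077). Tdgf1, a co-receptor for Nodal, was the gene with the deepest fall named here. It read 8.19, 5.01 and 8.03 at day 10 and 3.28, 3.13 and 3.60 at day 20 (fall of 3.74, SE 0.74, adjusted p = 0.016; 0.060 without day 20 replicate 2). Dppa5a, at 6.66, 8.61 and 9.57 and then 5.10, 5.40 and 5.36, fell by 2.995 (adjusted p = 0.017; up to 0.057 without day 10 replicate 2 or any 1 of the day 20 arrays). The day 10 arrays differed in which gene was high, with Tdgf1 low in replicate 2 and Dppa5a low in replicate 1. Klf2, a factor that blood flow induces in vessels and that stem cells also use, was the rise (1.503, adjusted p = 0.014; 0.056 without day 20 replicate 2). Leaving out 1 array gave 4 (day 20 replicate 2) to 12 (day 10 replicate 1) called lower.

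Of 11 simple epithelial markers, 4 fell and 0 rose (2 lower without day 20 replicate 1, 6 without day 10 replicate 3). Cdh1, which encodes E-cadherin, read 5.88, 6.25 and 5.94 at day 10 and 3.53, 3.71 and 3.65 at day 20 (fall of 2.39, SE 0.14, adjusted p = 1.2e-04). Podxl, a sialomucin of epithelia and stem cells, fell by 3.26 (SE 0.36, adjusted p = 0.0017), from 11.16, 9.70 and 10.22 to 6.81, 7.04 and 7.46. The paired keratin genes Krt8 and Krt18 were highest in day 10 replicate 1, at 11.14 and 10.76, against 8.61 to 8.82 and 7.20 to 8.27 in the other 2. Krt8 fell by 2.999 (adjusted p = 0.016) and Krt18 by 3.58 (adjusted p = 0.020). Both calls were lost without day 20 replicate 1 or 2, and that of Krt18 also without day 20 replicate 3, at adjusted p up to 0.054 and 0.065. Of 13 neural markers 1 rose, near the 7.30% of all genes, and 2 fell, with a median of -0.14, and 0 were called lower without day 20 replicate 1. The falls were those of Nes (-1.38, adjusted p = 0.021) and Sox2 (-2.02, adjusted p = 0.026), both lost without any 1 of the day 20 arrays and Sox2 also without day 10 replicate 2 (adjusted p up to 0.078 and 0.084). Ncam1, an adhesion molecule that heart muscle also carries, rose by 2.38 (SE 0.28, adjusted p = 0.0025). Bex2, Bex4, Rps6ka6, Tagln3, Itgb1bp2 and Cyria completed the 15 named falls, at -2.90, -2.79, -2.83, -3.06, -2.88 and -2.79. Rps6ka6, a kinase gene of the RSK family, had the closest replicates of these, at 10.43, 10.60 and 10.22 and then 7.47, 7.54 and 7.76 (SE 0.13, adjusted p = 1.0e-04).

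Imprinted growth genes, of which only 1 parental copy is active, fell in part. Of 13 measured, 6 fell and 1 rose, the latter near the 7.30% of all genes, with a median of -0.74. Cdkn1c, a cell cycle inhibitor, read 12.07, 12.06 and 11.73 at day 10 and 9.74, 9.66 and 9.12 at day 20 (fall of 2.45, SE 0.21, adjusted p = 6.2e-04). Igf2r, which removes the growth factor IGF2, fell by 1.58 (SE 0.19, adjusted p = 0.0027), Mest by 1.65 (SE 0.21, adjusted p = 0.0034) and Peg10, a gene of retroviral origin, by 1.53 (SE 0.21, adjusted p = 0.0045). The gene that rose was Dlk1, a Notch-like membrane protein gene (1.60, adjusted p = 0.022; up to 0.082 without day 20 replicates 1 or 2).

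Cell division genes depended on 1 array. Of 30 DNA replication genes, 2 fell, a share close to the 6.69% of all genes, and of 33 mitosis genes 0 were called by limma in either direction. At an unadjusted p under 0.05, 15 replication genes and 5 mitosis genes were lower and 0 of either list higher. By that measure 2754 of the 18194 genes tested were lower. The medians of the replication and mitosis lists, -1.19 and -1.14, were far below that of all genes. Mki67, a protein of dividing cells, read 10.30, 11.12 and 8.83 at day 10 and 10.13, 8.19 and 9.09 at day 20, with overlapping arrays (difference -0.94, SE 0.67, adjusted p = 0.40). Bub1, a spindle checkpoint kinase, read 9.84, 10.10 and 7.65 and then 8.41, 6.27 and 7.54 (difference -1.79, SE 0.76, adjusted p = 0.16). Day 10 replicate 3 was the lowest of its age in both, and day 20 replicate 1 the highest of its age. The list median of mitosis was taken against the mean of each gene over the 6 arrays of both ages. It was 1.04 and 1.42 above that mean in day 10 replicates 1 and 2, and 0.78 below it in replicate 3. Without day 10 replicate 3, 28 of the 30 replication genes and 24 of the 33 mitosis genes were called lower. Mcm2 and Orc6, which license and load the replication helicase, were the 2 called with all arrays, at -1.61 (adjusted p = 0.049) and -1.19 (adjusted p = 0.032), named to complete the count. Mcm2 was lost without each single array but day 10 replicate 3 (adjusted p up to 0.15), and Orc6 without day 10 replicates 1 or 2 or day 20 replicates 2 or 3 (adjusted p up to 0.11). Ccnd1, the cyclin D1 gene, fell by 1.82 (adjusted p = 0.019; up to 0.070 without replicate 1 at day 10 or replicates 1 or 2 at day 20).

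**Figure D5:**
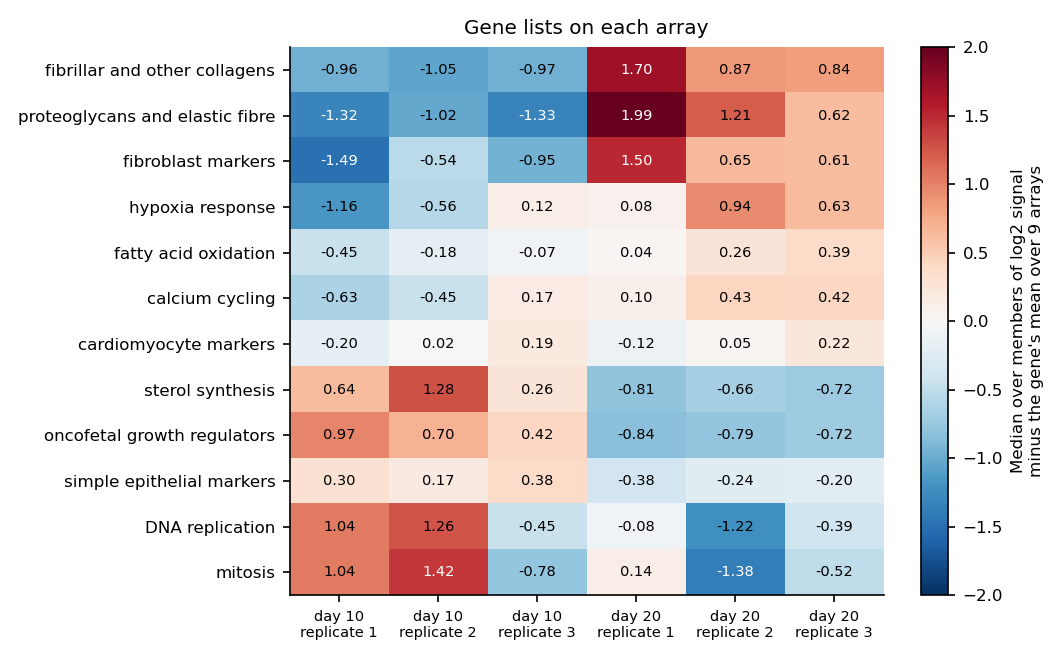
Median over the members of 12 gene lists of the log2 signal minus the mean of the same gene, for each day 10 and day 20 array (red above, blue below). That mean was taken over the 6 arrays shown, although the label of the colour bar says 9. Matrix, sterol and oncofetal lists separate the ages on every array, whereas mitosis and DNA replication are high only in day 10 replicates 1 and 2 and near 0 in day 20 replicate 1.

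Genes induced by low oxygen rose in part. Of 18, 7 rose and 0 fell, with a median of 1.13. Egln3, a prolyl hydroxylase that marks HIF for destruction, read 5.51, 6.55 and 8.31 at day 10 and 10.25, 11.52 and 11.18 at day 20 (rise 4.19, SE 0.66, adjusted p = 0.0071). Adm, which encodes the vessel-dilating peptide adrenomedullin, rose by 2.48 (SE 0.39, adjusted p = 0.0066). P4ha2 and P4ha1, collagen prolyl hydroxylases that HIF induces and that are counted among the collagen modifiers too, rose by 2.44 (SE 0.30, adjusted p = 0.0028) and 1.59 (SE 0.25, adjusted p = 0.0071). Car9, Ndrg1 and Higd1a, named to complete the count, rose by 3.15, 2.19 and 0.91. The calls of the last pair were lost without day 10 replicates 1 or 2 or day 20 replicates 2 or 3 (adjusted p up to 0.067 and 0.14). By list median, day 10 replicate 3 (0.12) did not lie below day 20 replicate 1 (0.08), so the ages overlapped, as they did for calcium cycling (0.17 and 0.10). Of 17 of these genes in the promoter table, 5 held TACGTG, a form of the element that HIF binds, or its reverse, against 3.4% of tested genes. The pattern was singled out after its share was seen. The 3 of them that rose are shown over the 120 bases before the start, 5′ to 3′ on the strand of the gene, with the pattern in capitals. They lie on chr4:43506906-43507025 (Car9), chr10:59323176-59323295 (P4ha1) and chr11:54100804-54100923 (P4ha2), all on the plus strand.
Car9: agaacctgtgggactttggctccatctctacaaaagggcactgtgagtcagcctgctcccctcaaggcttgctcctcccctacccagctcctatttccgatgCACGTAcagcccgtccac
P4ha1: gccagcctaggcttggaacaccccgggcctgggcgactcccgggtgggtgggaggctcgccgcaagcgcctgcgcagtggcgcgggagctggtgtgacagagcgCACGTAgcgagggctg
P4ha2: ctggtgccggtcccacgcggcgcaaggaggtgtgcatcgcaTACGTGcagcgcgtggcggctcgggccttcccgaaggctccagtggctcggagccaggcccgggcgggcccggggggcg

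Among stress genes, 4 of 19 of the ATF4 and unfolded protein list rose and 0 fell (2 higher without day 20 replicate 2). Dnajb9, a chaperone of the endoplasmic reticulum, read 9.47, 9.38 and 9.72 at day 10 and 10.41, 10.60 and 10.73 at day 20 (rise 1.05, SE 0.13, adjusted p = 0.0027), and Xbp1, a transcription factor of secretory cells, rose by 0.77 (adjusted p = 0.010). Of 21 interferon and antigen presentation genes, 4 rose and 0 fell (2 without day 20 replicate 3), led by Tapbp, which loads peptides on class I molecules (1.43, SE 0.14, adjusted p = 0.0010). Of 17 antioxidant genes 3 rose and 1 fell, the fall near the 6.69% of all genes. By limma the rises numbered 0 without day 20 replicate 1 and the falls 4 without day 10 replicate 3. Of 16 cytosolic ribosomal protein genes 3 fell and 0 rose (1 lower without day 10 replicate 1), with a median of -0.15. Rpl14 led them (-1.51, SE 0.17, adjusted p = 0.0017). Its probe set was dim for this list, with a day 10 mean of 7.93, against list means of 11.76 to 11.82 on the day 10 arrays. The fall of Rps6 also came from a dim probe set, at 7.43.

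Fewer genes passed the test in the later interval. Against the 14.0% called from day 10 to day 20, 61 genes (0.335%) were called from day 20 to day 30, 53 higher (0.291%) and 8 lower (0.0440%). Both intervals share the day 20 arrays, so their values are set side by side and not correlated. Lum rose by 6.79 and then differed by 0.78, Casq2 by 5.35 and then 0.81, Ckm by 5.44 and then 0.61, and Hmga2 fell by 3.67 and then differed by -1.10. Idi1 fell by 2.42 and then differed by 0.98, and the median of the sterol list was -1.40 and then 0.48. Of the genes called in the earlier interval, 28 were called in the later one in the same direction and 4 in the opposite one. The difference between the intervals was itself past the threshold for 87 genes (0.478%), of which 28 had the more positive change later and 59 the more negative. By limma, that count was 0 without day 20 replicate 2 (1635 genes at an unadjusted p under 0.05), 1 without day 20 replicate 3 and 1725 without day 10 replicate 3.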

How the data were processed

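RNA from 9 cultures was measured on 1-colour 3 prime arrays, 3 at each of days 10, 20 and 30. The log2 signals are the authors' deposited values; their normalization, software and log base were not given in the sources used here. In all, the platform annotation gave exactly 1 symbol to 34958 of the 45101 probe sets; the 932 with several symbols and the 9211 without any were left out. The probe set with the highest mean over all 9 arrays stood for each of 18194 genes. Differences were tested on all 9 arrays (6 residual degrees of freedom) by lmFit and eBayes of limma 3.58.1, run in R 4.3.3, with Benjamini-Hochberg adjustment over all genes and a threshold of 0.05. Promoters came from the RefSeq table on GRCm38.p6.

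Named genes were the 15 largest rises and 15 deepest falls among called genes with non-overlapping arrays and a group mean above the median of all genes, up to 4 members of each list in order of adjusted p, the 5 most positive and 5 most negative differences between intervals, and a fixed set of cardiac genes with their isoform partners. Genes outside this rule were chosen after their values were seen: Atp2a2, Ryr2, Sri, Kcnj3, Kcne1, Car9, Ndrg1, Higd1a, Lin28a, Dnmt3b, Sox11, Dlk1, Klf2, Srebf2, Insig1, Pdgfra, Tcf21 and those under other observations. The members and lists were chosen with earlier results of these data known. Of 865 genes in 48 lists, 792 were measured and the rest were not analysed here. Alternatives were quantile and median scaling, 2 filters on dim genes, other probe set rules, array weights, a variance trend, the 6 arrays alone, a replicate block and each array left out in turn. The procedure was tested on simulated data, in which 100 of 18194 genes were changed 2-fold and 100 were changed 4-fold. Each gene varied independently of the others. With no gene changed, 0 were called. With an equal spread at all ages, 7 of 150 calls were false. With the unequal spread of the ages, 50 of 209 calls were false, a share above the threshold. In the data 14.0% of genes were called and whole arrays stood apart, so these shares of false calls cannot be carried over to them. Calls, above all those near the threshold, may still be less certain than their adjusted p.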

Additional observations from a re-analysis of the deposited data

Results flagged for a closer look

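For 10 named genes the change from day 20 to day 30 differed from the change from day 10 to day 20 by limma's test of the difference (adjusted over all genes). The values are the later change minus the earlier one. Among genes that had fallen, it was 4.05 for Igfbp3 (adjusted p = 0.042), 3.40 for Idi1 (0.016), 3.31 for Capn6 (0.044), 3.24 for Cdkn1c (0.016) and 2.84 for Tagln3 (0.047). Among genes that had risen, it was -6.52 for Fbln5 (adjusted p = 0.035), -6.26 for Lox (0.022), -6.18 for Eln (0.018), -6.01 for Susd2 (0.023) and -5.95 for Mgp (0.015). None of these values is a later change by itself. A gene that changed early and then kept its level gives its earlier change with the sign turned. In the same order, the earlier changes were -2.74, -2.42, -2.09, -2.45 and -3.06 for the genes that had fallen. For those that had risen they were 6.74, 6.55, 5.59, 4.98 and 6.23. Both intervals use the day 20 arrays, and over all genes the number past the threshold was 0 without day 20 replicate 2.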

How the results depend on the processing

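The number of genes that differed was changed by array weights, to 5614 (2662 higher, 2952 lower, 722 at least 2-fold lower), and by using the 6 arrays alone, to 1326 (848, 478 and 194). With each array left out in turn it ran from 1014 to 4647, with 651 to 2206 higher, 363 to 2441 lower, 479 to 1046 at least 2-fold higher and 170 to 820 at least 2-fold lower. The number whose changes differed between intervals ran from 0 to 1725, and was 1912 with array weights and 257 with weights by age. Other settings kept the total within 1.5 times: 2543 with quantile scaling, 2431 with median scaling, 2103 and 2542 with the 2 filters, 2370 with probe sets averaged and 2353 with a trend. The cause of these shifts was not tested.

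Replicate numbers are shared between ages. With the replicate number as a block, 2417 genes differed (1364 higher, 1053 lower). Deviations of same-numbered day 10 and day 20 arrays correlated at 0.254, 0.0816 and 0.0955, and not every array correlated best with its own number, so the numbers were not taken as pairs.

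Among uncalled genes the direction turned for Tcf21 (-8.01e-04 with array weights) and Nppb (1.72 with array weights). With 1 array left out in turn, the difference ran from -1.99 to 0.52 for Nppb, -0.17 to 1.04 for Ryr2, -0.041 to 1.19 for Myl2 and -0.17 to 0.11 for Myl7. Among 138 called genes named in the text none turned direction under the settings run, and 99 kept their call under each.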

Other observations

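The genes given here were chosen after their values were seen. Of 6 fatty acid synthesis genes looked at, 4 fell: Fasn, the synthase itself, by 1.2 (limma adjusted p = 0.0048), Acaca, which makes its malonyl-CoA substrate, by 1.198 (0.0056), Acly, which supplies acetyl-CoA, by 1.06 (0.011), and the elongase gene Elovl6 by 2.60 (0.0024). The desaturase genes Scd1 (-1.02, adjusted p = 0.29) and Scd2 (-0.32, adjusted p = 0.31) did not pass. Of the regulators of muscle splicing, Rbfox1 rose by 2.24 (adjusted p = 0.0028) and Mbnl1 by 1.08 (0.0025), and Rbm20, which acts on titin, did not pass (0.74, adjusted p = 0.14).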
